A study of Mus musculus with 19 samples.

Results

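The genes described here are 39 interferon-induced genes of the mouse, taken by symbol from a list and found once each among the 50686 genes measured in skin. They comprise 11 guanylate-binding proteins (GBP), 7 immunity-related GTPases (IRG), 11 genes named here the type I type (the Ifit, Oas and Mx genes and Isg15), and 10 further members. These 10 were not sorted into either type here, which does not mean that they respond to neither kind of interferon. The GBP and IRG genes, 18 in all, are called the IFN-gamma type. Interferons are cytokines that switch on antiviral and antimicrobial genes. IFN-gamma is made mainly by T cells and NK cells and acts on genes with DNA elements called GAS, whereas type I interferons (IFN-alpha and IFN-beta) act through a complex that holds STAT2 and IRF9 on elements called ISRE. Both kinds of interferon raise most of these genes to some degree, and the GBP and IRG families are best known as targets of IFN-gamma, with roles at the vacuoles of intracellular parasites and bacteria.

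Skin of 19 mice was sequenced 42 days after bone marrow transplantation (BMT). All recipients were irradiated female BALB/c mice, aged 8 to 12 weeks, given T cell-depleted marrow with splenocytes from male donors. Scl-cGVHD mice, the sclerodermatous chronic graft-versus-host disease model, received B10.D2 cells, which differ from the host at minor histocompatibility loci, and syngeneic mice received BALB/c cells. Scl-cGVHD mice were given control IgG (n = 3), 0.5 mg of the anti-CX3CL1 mAb (n = 3) or 1 mg of it (n = 5), and syngeneic mice were given the mAb at a dose that the labels do not state (n = 5) or control IgG (n = 3). Injections ran from day 7 to day 35. Values listed by mouse follow one order throughout: ID_1535, ID_1537 and ID_1538 for Scl-cGVHD IgG, ID_1539 to ID_1541 for 0.5 mg, ID_1542 to ID_1546 for 1 mg, ID_1530 to ID_1534 for syngeneic mAb and ID_1527 to ID_1529 for syngeneic IgG. CX3CL1, or fractalkine, is a chemokine that attracts macrophages and T cells carrying CX3CR1. Because the donors of Scl-cGVHD mice are of another strain than the host, the disease and the donor strain of the immune cells cannot be told apart in any comparison of Scl-cGVHD with syngeneic skin. Levels are given in TPM, which takes gene length into account and adds up to one fixed total per mouse. Whole skin was measured, so more cells of an expressing type and more RNA per cell cannot be told apart.

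The libraries held 22699740 to 38841010 read pairs. Defining markers of keratinocytes were present in every mouse, with 6057 to 32210 TPM summed over 8 genes, as were those of skeletal muscle, with 4342 to 24460 TPM over 7 genes. Between Scl-cGVHD IgG and syngeneic IgG mice the median log2 fold change over all 16350 genes tested was -0.33, and 27.7% of all called genes were higher. With median-ratio factors that median was -0.004 and the share 51.7%, and with quantile normalization they were -0.060 and 47.6%. Individual mice stood apart. Scl-cGVHD IgG mouse ID_1537 had 3114 TPM over 6 neutrophil markers, where its group mates had 23.6 and 178 TPM. The 0.5 mg mouse ID_1540 had 7658 TPM over 7 fibroblast markers, where the other Scl-cGVHD mice had 224 to 2522 TPM and syngeneic mice 3924 to 11880 TPM. Several counts and medians that rest on these mice are given with and without them, while results of single genes are mostly given with all mice.

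The stretches upstream of the genes show what the 2 types share in sequence. RefSeq promoter windows of GRCm38.p6 matched 26 of the 39 genes, and the 250 bases before each start were searched on both strands for ISRE-like letters (GAAA, any 2 bases and GAAA again, read on the other strand as TTTC, 2 bases and TTTC) and GAS-like letters (TTC, any 3 bases and GAA, which read the same on both strands). Matches that overlap one another were all counted. ISRE-like letters stood in 10 of 11 matched genes of the IFN-gamma type, in 5 of 8 of the type I type and in 2 of the other 7, while 3.46% of the 27025 genes with a window held them. GAS-like letters stood in 6 of 11, 2 of 8 and 1 of 7, against 8.13% of all genes. A match is a description of letters and not a site of binding. Positions of windows and genes are on GRCm38. The 4 IRG genes Igtp, Irgm2, Tgtp1 and Tgtp2 carried the 2 kinds of letters side by side, with 2 bases between them each time, and no other of the 26 matched genes held the pair at that spacing. Tgtp1 and Tgtp2 are near-copies, and the stretches of Igtp and Irgm2 are nearly identical around these letters. The 4 are therefore not separate instances of that spacing. The 110 bases before the start are shown for these 4 genes, then for Gbp7 and Gbp2 of the GBP family, Irf1 with a GAS-like match alone, and Isg15, Oas1a and Ifit1 of the type I type, with the matched letters in capitals. Irf1 has a further window with neither kind of letters, and the window shown was chosen because it held a match. The windows are Igtp (chr11:58199446-58199555, plus strand), Irgm2 (chr11:58214867-58214976, plus), Tgtp1 (chr11:48992247-48992356, minus), Tgtp2 (chr11:49064213-49064322, minus), Gbp7 (chr3:142530226-142530335, plus), Gbp2 (chr3:142620553-142620662, plus), Irf1 (chr11:53769904-53770013, plus), Isg15 (chr4:156200819-156200928, minus), Oas1a (chr5:120907526-120907635, minus) and Ifit1 (chr19:34640779-34640888, plus).
Igtp: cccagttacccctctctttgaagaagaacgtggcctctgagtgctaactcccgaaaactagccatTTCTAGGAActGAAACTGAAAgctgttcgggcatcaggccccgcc
Irgm2: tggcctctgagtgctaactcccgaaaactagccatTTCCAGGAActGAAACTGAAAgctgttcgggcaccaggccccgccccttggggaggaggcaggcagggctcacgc
Tgtp1: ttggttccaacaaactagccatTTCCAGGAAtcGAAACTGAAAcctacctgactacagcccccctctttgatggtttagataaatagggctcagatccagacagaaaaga
Tgtp2: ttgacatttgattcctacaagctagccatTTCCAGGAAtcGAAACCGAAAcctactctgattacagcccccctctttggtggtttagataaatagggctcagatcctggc
Gbp7: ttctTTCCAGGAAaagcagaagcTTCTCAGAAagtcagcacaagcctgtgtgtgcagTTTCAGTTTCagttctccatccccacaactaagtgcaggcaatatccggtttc
Gbp2: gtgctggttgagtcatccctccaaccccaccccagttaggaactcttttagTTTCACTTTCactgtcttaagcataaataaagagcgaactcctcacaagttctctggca
Irf1: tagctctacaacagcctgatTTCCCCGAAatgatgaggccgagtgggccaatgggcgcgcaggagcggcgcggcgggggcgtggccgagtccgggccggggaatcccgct
Isg15: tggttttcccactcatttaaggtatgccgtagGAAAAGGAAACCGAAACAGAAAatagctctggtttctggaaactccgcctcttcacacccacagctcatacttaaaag
Oas1a: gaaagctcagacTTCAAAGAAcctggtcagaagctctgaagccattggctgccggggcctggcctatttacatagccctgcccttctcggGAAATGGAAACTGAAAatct
Ifit1: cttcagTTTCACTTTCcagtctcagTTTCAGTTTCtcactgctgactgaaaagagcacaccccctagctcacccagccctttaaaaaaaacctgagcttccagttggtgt
In Isg15 3 ISRE-like matches overlap in 1 run, as do 2 in Oas1a, and Ifit1 holds 2 separate ones on the other strand.

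In Scl-cGVHD skin the GTPases of the IFN-gamma type were higher almost throughout, while the type I type was split. Of the 39 genes, 23 were called higher in Scl-cGVHD IgG than in syngeneic IgG mice and none lower (limma, adjusted p under 0.05), where 6.84% of all genes tested were called higher. These were 15 of 18 of the IFN-gamma type, 5 of 11 of the type I type (Isg15, Oas1a, Oas2, Oas3 and Oasl2) and 3 of the other 10 (Irf1, Ido1 and Zbp1). The median log2 fold change, on the log2(TPM + 1) scale, was 2.47 for the IFN-gamma type, 1.32 for the type I type (1.28 without Oas1a, which is listed at 0 in syngeneic mice) and 1.11 for the others. Fold changes on this scale understate those of genes with low levels. In 25 of the 39 genes every Scl-cGVHD IgG mouse lay above every syngeneic IgG mouse, against 10.4% of all genes, and 16 of the 25 were of the IFN-gamma type. All 39 genes passed the filter on low levels, Oas1a and Ido1 only through Scl-cGVHD mice, so that these 2 had to differ. Without ID_1537 the count of calls was 27. The count for the type I type was 8 with median-ratio factors or quantile normalization, 7 without ID_1537, and 3 without any one of ID_1535, ID_1538, ID_1527 and ID_1529, and that for the other 10 genes was 6 with median-ratio factors and 5 without ID_1537.

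The same genes stood higher under the mAb, in mice that share no animal with the IgG groups. Between 1 mg mice and syngeneic mAb mice 35 of the 39 genes were called higher and none lower, where 7.99% of all genes were called higher. They were 17 of 18 of the IFN-gamma type, 9 of 11 of the type I type and 9 of the other 10, with median log2 fold changes of 2.86, 1.79 (1.73 without Oas1a) and 1.55, where that of all genes was -0.32. Of all called genes 22.0% were higher, or 51.2% with median-ratio factors. In 31 genes every 1 mg mouse lay above every syngeneic mAb mouse, against 5.96% of all genes. All 23 genes called in the IgG groups were called here too, and 12 more passed. Gbp11, Ifit2, Ifit3 and Usp18 passed in neither. The mAb comparison has more mice per group than the IgG one. The difference between the fold changes of both comparisons was called by limma for none of the 39 genes, and 0 had an unadjusted p under 0.05. Over all genes, 0% were called for that difference and 3.56% had an unadjusted p under 0.05.

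**Figure D1:**
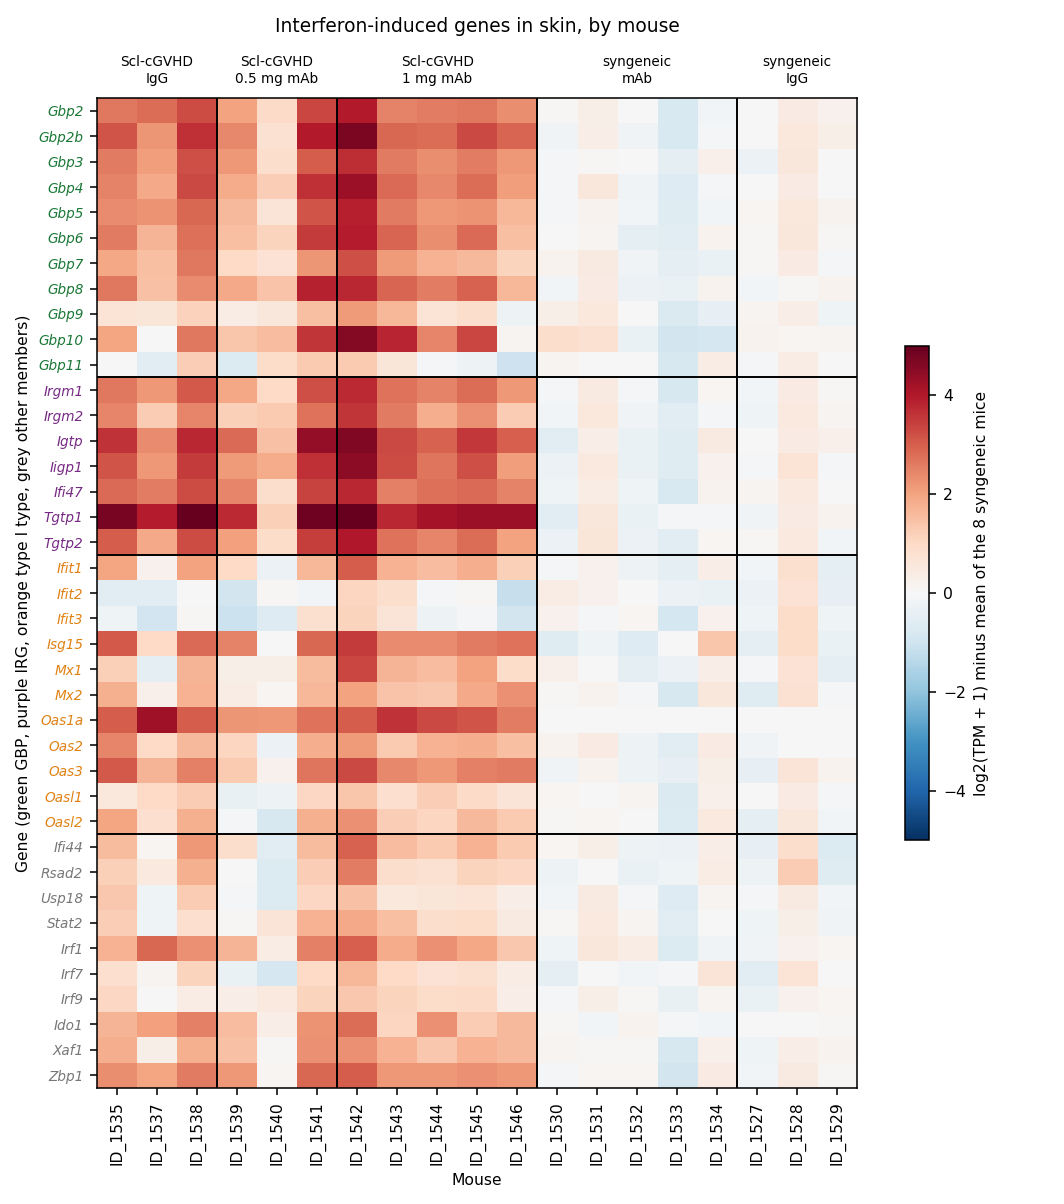
Levels of the 39 genes (rows) in each of the 19 mice (columns), coloured by log2(TPM + 1) minus the gene's mean over the 8 syngeneic mice, with black lines between groups and between classes. The GBP and IRG rows are red in nearly all 11 Scl-cGVHD mice, palest in ID_1540 and deepest in ID_1542, while Ifit2, Ifit3 and Gbp11 stay near white.

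**Figure D2:**
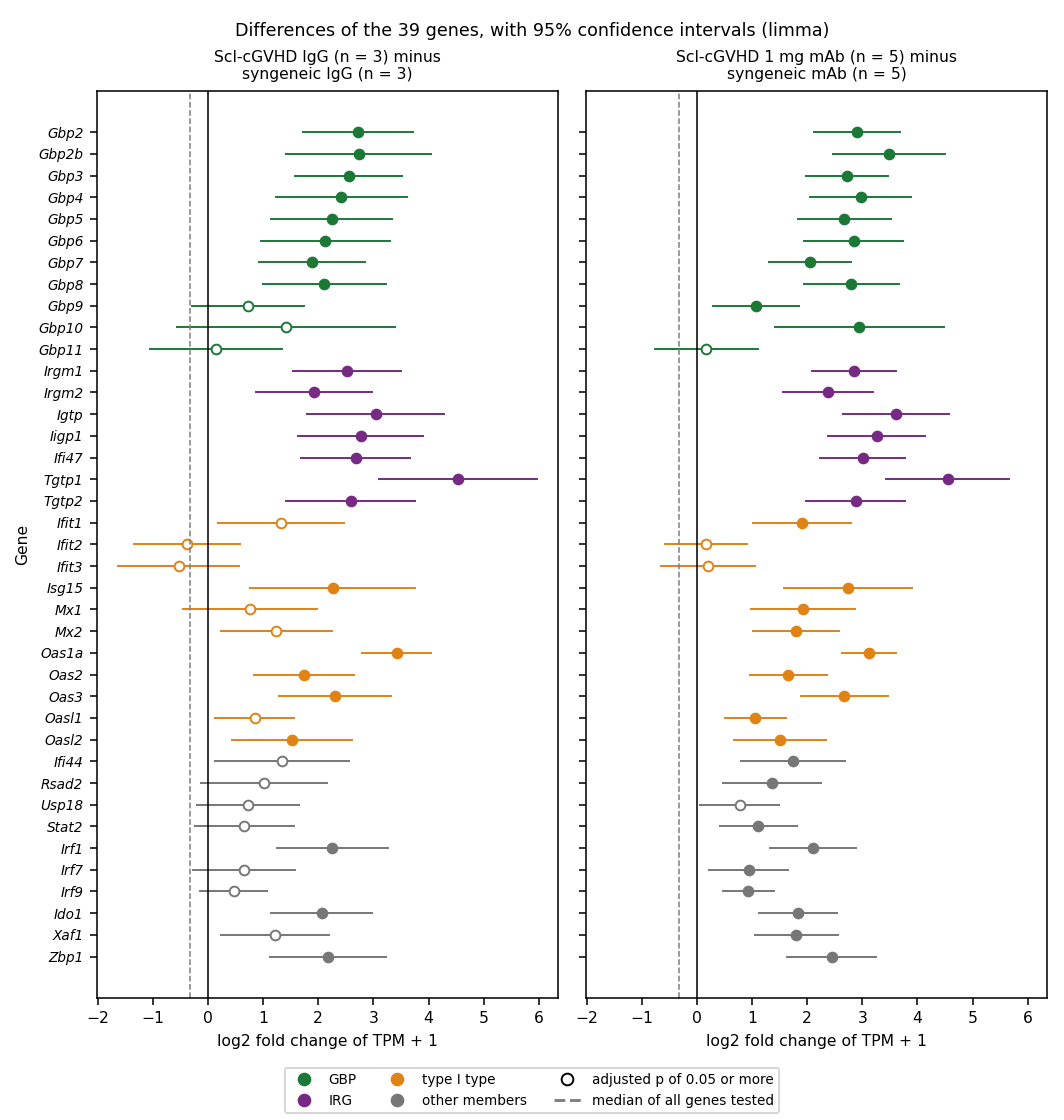
Log2 fold changes of the 39 genes (points; bars are 95% confidence intervals from limma) in Scl-cGVHD IgG minus syngeneic IgG mice (left) and 1 mg minus syngeneic mAb mice (right), filled where the adjusted p is under 0.05. 23 points are filled on the left and 35 on the right, all to the right of 0, and the dashed line marks the median of all genes tested (-0.33 and -0.32).

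The GBP genes lie in 2 clusters. The 5 on chromosome 3 were all called in the IgG groups, with log2 fold changes of 1.89 to 2.73. Gbp2 (chr3:142620602-142638008), a large GTPase recruited to parasite vacuoles, was at 149.9, 165 and 230.4 TPM in Scl-cGVHD IgG mice, against 22.4, 30.6 and 26.6 TPM in syngeneic IgG mice. Its levels were 94.6, 45.9 and 242 TPM in 0.5 mg mice and 373, 134, 140.1, 148 and 118 TPM in 1 mg mice, against 23.8, 28.4, 23, 13.2 and 20.9 TPM in syngeneic mAb mice. Scl-cGVHD and syngeneic mice did not overlap, and the log2 fold change was 2.72 (SE 0.47, adjusted p = 0.0016) for IgG and 2.90 (SE 0.37, adjusted p = 6.61e-05) for the mAb. Gbp2b (chr3:142594847-142619179), the mouse gene also known as Gbp1, was at 165, 85 and 235 TPM in Scl-cGVHD IgG mice, against 17.7, 25.9 and 21.8 TPM in syngeneic IgG mice. With mAb, Gbp2b was at 96.4, 30.7 and 291 TPM in 0.5 mg mice and 488, 134, 129.6, 183 and 138 TPM in 1 mg mice, against 15.4, 22.7, 15.4, 9.96 and 16.9 TPM in syngeneic mAb mice. Mouse ID_1542 had by far the highest level and ID_1540 the lowest of the Scl-cGVHD mice, and the log2 fold changes were 2.73 (SE 0.62, adjusted p = 0.0069) and 3.49 (SE 0.48, adjusted p = 0.000145). Gbp3, a close relative next to it in the cluster, was at 69.3, 48.9 and 107 TPM in Scl-cGVHD IgG mice, against 8.5, 16.4 and 10.4 TPM in syngeneic IgG mice. With mAb, Gbp3 was at 51.9, 20.2 and 94.4 TPM in 0.5 mg mice and 151, 69.9, 56.6, 67.4 and 50.8 TPM in 1 mg mice, against 10.1, 11, 10.4, 7.46 and 12.8 TPM in syngeneic mAb mice. The Scl-cGVHD and syngeneic mice did not overlap. Gbp5 (chr3:142493978-142522344), which promotes assembly of the NLRP3 inflammasome, was at 19.7, 17.6 and 28.3 TPM in Scl-cGVHD IgG mice, against 3.25, 4.65 and 3.44 TPM in syngeneic IgG mice. With mAb, Gbp5 was at 11.1, 5.28 and 34.5 TPM in 0.5 mg mice and 57.5, 23.3, 17.1, 18 and 11.7 TPM in 1 mg mice, against 2.71, 3.51, 2.66, 1.6 and 2.65 TPM in syngeneic mAb mice. Again no Scl-cGVHD mouse reached down to the syngeneic range. Gbp7, a GBP that acts with the phagocyte oxidase, was at 23, 16.5 and 37.4 TPM in Scl-cGVHD IgG mice, against 5.51, 7.38 and 4.85 TPM in syngeneic IgG mice. With mAb, Gbp7 was at 11.5, 9.33 and 27.5 TPM in 0.5 mg mice and 57.2, 26.6, 19.8, 18.2 and 12.5 TPM in 1 mg mice, against 6.1, 7.49, 4.5, 3.4 and 3.91 TPM in syngeneic mAb mice. It had the smallest log2 fold change of the cluster in both comparisons, 1.89 and 2.05.

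The 6 GBP genes on chromosome 5 were less uniform, with log2 fold changes of 0.14 to 2.42 in the IgG groups, where 3 were called, and of 0.17 to 2.97 in the mAb groups, where 5 were. Gbp4 (chr5:105115767-105139586) was at 56.4, 37.3 and 101 TPM in Scl-cGVHD IgG mice, against 9.41, 12.8 and 9.23 TPM in syngeneic IgG mice. With mAb, Gbp4 was at 36.4, 23.4 and 129 TPM in 0.5 mg mice and 201, 72.5, 53.6, 69.7 and 42.8 TPM in 1 mg mice, against 8.63, 14.1, 8.14, 5.62 and 8.78 TPM in syngeneic mAb mice. Gbp4, Gbp8 and Gbp9 overlap one another in the annotation, and their reads can be shared between them by estimation only. Gbp8, whose open reading frame is identical to that of Gbp4 at 92.9% of aligned bases, was at 15.9, 6.4 and 12.9 TPM in Scl-cGVHD IgG mice, against 1.46, 1.84 and 2.08 TPM in syngeneic IgG mice. With mAb, Gbp8 was at 8.89, 6.31 and 38.1 TPM in 0.5 mg mice and 35.7, 19.2, 15, 19.9 and 7.55 TPM in 1 mg mice, against 1.46, 2.62, 1.17, 1.16 and 2.08 TPM in syngeneic mAb mice. Both genes separated the 2 models in every mouse, with log2 fold changes of 2.42 (SE 0.56, adjusted p = 0.00753) and 2.11 (SE 0.53, adjusted p = 0.0106) for IgG. Gbp9, the third gene of the overlapping locus, was at 7.79, 7.5 and 11.2 TPM in Scl-cGVHD IgG mice, against 5.01, 5.94 and 3.8 TPM in syngeneic IgG mice. With mAb, Gbp9 was at 6.05, 7.17 and 14.7 TPM in 0.5 mg mice and 23.4, 16.3, 7.96, 9.19 and 3.63 TPM in 1 mg mice, against 5.78, 7.04, 4.67, 2.32 and 3.2 TPM in syngeneic mAb mice. It was called for the mAb alone (log2 fold change 1.08, SE 0.37, adjusted p = 0.0323), where the groups overlapped, and the call was lost without the filter on low levels, in a fit of the compared groups alone, or without any one of ID_1542, ID_1543, ID_1545, ID_1533 and ID_1534.

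Gbp6 and Gbp10 are near-copies, with 98.4% identity over 1836 aligned bases of open reading frame, so the split of reads between them is uncertain. Gbp6 (chr5:105270702-105293698) was at 27.1, 14.3 and 30.9 TPM in Scl-cGVHD IgG mice, against 3.86, 5.92 and 3.89 TPM in syngeneic IgG mice. With mAb, Gbp6 was at 12.3, 9.24 and 51.5 TPM in 0.5 mg mice and 69.2, 34.3, 22.7, 32.4 and 12.3 TPM in 1 mg mice, against 3.63, 4.19, 2.37, 2.26 and 4.24 TPM in syngeneic mAb mice. Every Scl-cGVHD mouse lay above every syngeneic mouse. Gbp10 (chr5:105215699-105239533) was at 21.4, 4.66 and 34.5 TPM in Scl-cGVHD IgG mice, against 5.44, 5.11 and 5.13 TPM in syngeneic IgG mice. With mAb, Gbp10 was at 13.8, 15.5 and 66.2 TPM in 0.5 mg mice and 133, 77.3, 29.5, 56.5 and 5.25 TPM in 1 mg mice, against 9.43, 8.62, 3.54, 1.97 and 2.16 TPM in syngeneic mAb mice. ID_1537 and ID_1546 lay within the syngeneic range and ID_1542 far above the other mice, and only the mAb groups passed (log2 fold change 2.94, SE 0.73, adjusted p = 0.0059). Gbp11 (chr5:105323042-105346472), annotated as a polymorphic pseudogene, was at 3.03, 1.7 and 8.33 TPM in Scl-cGVHD IgG mice, against 2.69, 4.11 and 3.01 TPM in syngeneic IgG mice. With mAb, Gbp11 was at 1.48, 6.52 and 8.92 TPM in 0.5 mg mice and 8.88, 5.04, 2.8, 2.29 and 0.93 TPM in 1 mg mice, against 3.37, 2.96, 2.95, 1.29 and 4.07 TPM in syngeneic mAb mice. Its groups overlapped in both comparisons, with 95% intervals of the log2 fold change of -1.06 to 1.34 and -0.76 to 1.10.

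All 7 IRG genes were called in both comparisons, and in each of them every Scl-cGVHD mouse, ID_1540 included, lay above every syngeneic mouse. Irgm1 (chr11:48861968-48871683), a regulator that keeps the effector IRG proteins inactive on host membranes, was at 156, 113 and 211 TPM in Scl-cGVHD IgG mice, against 22.1, 32.5 and 25.2 TPM in syngeneic IgG mice. With mAb, Irgm1 was at 94.5, 49.6 and 235 TPM in 0.5 mg mice and 337, 164, 140.4, 172 and 111 TPM in 1 mg mice, against 23.2, 33.4, 22.8, 13.4 and 26.2 TPM in syngeneic mAb mice. The log2 fold change was 2.52 (SE 0.46, adjusted p = 0.00215) for IgG and 2.85 (SE 0.36, adjusted p = 6.61e-05) for the mAb. Igtp (chr11:58199556-58207591), a second such regulator also called Irgm3, was at 257, 107 and 284 TPM in Scl-cGVHD IgG mice, against 19.3, 27 and 24.1 TPM in syngeneic IgG mice. With mAb, Igtp was at 146, 56.9 and 439.9 TPM in 0.5 mg mice and 521, 204, 159, 239 and 166 TPM in 1 mg mice, against 13.6, 25, 15.7, 12.6 and 27.7 TPM in syngeneic mAb mice. Its log2 fold changes, 3.04 (SE 0.59, adjusted p = 0.00293) and 3.62 (SE 0.45, adjusted p = 6.61e-05), were the largest of the 3 regulators. Irgm2 (chr11:58199618-58222782), whose annotated span covers most of Igtp, was at 57.5, 24.7 and 56.6 TPM in Scl-cGVHD IgG mice, against 8.2, 13.8 and 10.6 TPM in syngeneic IgG mice. With mAb, Irgm2 was at 23.3, 25.7 and 69.5 TPM in 0.5 mg mice and 126, 64.4, 36.6, 50.8 and 24.8 TPM in 1 mg mice, against 8.72, 14.4, 8.39, 6.45 and 9.36 TPM in syngeneic mAb mice. Its log2 fold change for IgG was 1.92 (SE 0.50, adjusted p = 0.0127), and without ID_1527 the adjusted p was 0.0541.

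Of the effector IRG genes, Iigp1, which coats and disrupts the vacuole of Toxoplasma, was at 166, 82.7 and 212 TPM in Scl-cGVHD IgG mice, against 16.4, 29.4 and 16.9 TPM in syngeneic IgG mice. With mAb, Iigp1 was at 79.8, 66.5 and 234 TPM in 0.5 mg mice and 415, 179.8, 119.5, 175 and 78.2 TPM in 1 mg mice, against 14.2, 25.2, 14, 11.2 and 20.8 TPM in syngeneic mAb mice. ID_1542 had more than any other mouse. Ifi47 (chr11:49076587-49096974), another effector, was at 125, 104 and 171 TPM in Scl-cGVHD IgG mice, against 18.6, 24.2 and 16.8 TPM in syngeneic IgG mice. With mAb, Ifi47 was at 95.7, 31.6 and 183 TPM in 0.5 mg mice and 244, 102, 118, 126 and 99.2 TPM in 1 mg mice, against 14.5, 21.9, 14.4, 9.5 and 19.1 TPM in syngeneic mAb mice. Its lowest Scl-cGVHD value, in ID_1540, was still above the highest syngeneic one. Tgtp1 (chr11:48985327-48994172), a T cell-specific GTPase by name that also loads onto parasite vacuoles, was at 92, 51.6 and 146 TPM in Scl-cGVHD IgG mice, against 2.12, 3.66 and 2.95 TPM in syngeneic IgG mice. With mAb, Tgtp1 was at 45.3, 6.92 and 99.3 TPM in 0.5 mg mice and 193, 47.2, 61.2, 67.2 and 66.3 TPM in 1 mg mice, against 1.38, 4.14, 1.78, 2.39 and 2.33 TPM in syngeneic mAb mice. Its mean was 33.2-fold higher in Scl-cGVHD IgG than in syngeneic IgG mice, and 36.2-fold higher in 1 mg than in syngeneic mAb mice. On the log2(TPM + 1) scale the fitted differences were 4.54 (SE 0.68, adjusted p = 0.000675) and 4.55 (SE 0.53, adjusted p = 4.17e-05), with a pseudocount that pulls low levels together. Tgtp2 (chr11:49057194-49064206), its near-copy with 99.7% identity over 1248 bases, was at 75.7, 33.2 and 88 TPM in Scl-cGVHD IgG mice, against 8.77, 12 and 7.48 TPM in syngeneic IgG mice. With mAb, Tgtp2 was at 37.9, 16.6 and 100.3 TPM in 0.5 mg mice and 149, 60.1, 49.1, 63.8 and 36.6 TPM in 1 mg mice, against 6.66, 13.2, 6.69, 5.33 and 8.9 TPM in syngeneic mAb mice. The log2 fold changes of Tgtp2 were 2.59 and 2.88, and how reads were divided between the copies cannot be seen in the table.

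Of the type I type, the 5 genes called in the IgG groups were Isg15 and 4 of the Oas family. Isg15 (chr4:156199424-156200818), a ubiquitin-like protein joined to other proteins in antiviral defence, was at 417, 98.5 and 347 TPM in Scl-cGVHD IgG mice, against 34.2, 92.8 and 38.6 TPM in syngeneic IgG mice. With mAb, Isg15 was at 276, 47.8 and 359 TPM in 0.5 mg mice and 550.2, 256, 256, 297 and 323 TPM in 1 mg mice, against 31.2, 41.4, 30.2, 48.3 and 127 TPM in syngeneic mAb mice. ID_1537 and ID_1540 were the low Scl-cGVHD mice, both under the highest syngeneic mouse, ID_1534. The log2 fold changes were 2.26 (SE 0.71, adjusted p = 0.0297) and 2.73 (SE 0.55, adjusted p = 0.00172), and the call for IgG was lost without any one of ID_1535, ID_1538, ID_1527 and ID_1529 (highest adjusted p = 0.103). Oas3 (chr5:120753098-120777661) belongs to the synthetases that make the oligoadenylates switching on RNase L, and was at 27.8, 10.1 and 18.4 TPM in Scl-cGVHD IgG mice, against 1.56, 4.31 and 2.85 TPM in syngeneic IgG mice. With mAb, Oas3 was at 7.4, 3.02 and 20.9 TPM in 0.5 mg mice and 32.8, 17, 14.2, 18.6 and 19.9 TPM in 1 mg mice, against 2.07, 2.85, 1.84, 1.57 and 3.22 TPM in syngeneic mAb mice. Except for ID_1540 the models did not overlap, and the log2 fold changes were 2.30 (SE 0.48, adjusted p = 0.00412) and 2.67 (SE 0.37, adjusted p = 0.000134). Oas2, its neighbour in the chromosome 5 locus, was at 41, 14.3 and 22.8 TPM in Scl-cGVHD IgG mice, against 5.82, 6.93 and 6.61 TPM in syngeneic IgG mice. With mAb, Oas2 was at 15.6, 5.37 and 26 TPM in 0.5 mg mice and 32.6, 18.4, 24.8, 26.2 and 21.3 TPM in 1 mg mice, against 7.8, 9.34, 5.57, 4.28 and 9.25 TPM in syngeneic mAb mice. The log2 fold changes, 1.74 and 1.66, were close to each other. Oasl2, an Oas-like gene, was at 102, 46.7 and 88.7 TPM in Scl-cGVHD IgG mice, against 18.5, 38.4 and 23.2 TPM in syngeneic IgG mice. With mAb, Oasl2 was at 23.4, 14 and 90.0 TPM in 0.5 mg mice and 129, 60.7, 54.1, 80.4 and 64.9 TPM in 1 mg mice, against 26.6, 27.1, 25.6, 15.6 and 36.2 TPM in syngeneic mAb mice. The 0.5 mg mice ID_1539 and ID_1540 lay within or under the syngeneic range, and the call for IgG (log2 fold change 1.52, SE 0.52, adjusted p = 0.0403) was lost without a filter on low levels or without any one of ID_1535, ID_1538, ID_1527 and ID_1529. Oasl1, which in mice limits translation of Irf7, was at 8.25, 11.7 and 14.4 TPM in Scl-cGVHD IgG mice, against 5.25, 7.36 and 4.96 TPM in syngeneic IgG mice. With mAb, Oasl1 was at 3.9, 4.28 and 11.9 TPM in 0.5 mg mice and 15.5, 10.4, 13.9, 11.2 and 8.83 TPM in 1 mg mice, against 5.74, 5.39, 5.91, 2.8 and 6.51 TPM in syngeneic mAb mice. It was called for the mAb alone, with a log2 fold change of 1.06 (SE 0.27, adjusted p = 0.00605) against 0.84 (SE 0.34, adjusted p = 0.0781) for IgG.

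Oas1a (chr5:120896256-120907521) was measured in one model and listed at 0 in the other. It was at 7.16, 17.8 and 7.06 TPM in Scl-cGVHD IgG mice, against 0, 0 and 0 TPM in syngeneic IgG mice. With mAb, Oas1a was at 3.57, 3.55 and 5.64 TPM in 0.5 mg mice and 7.14, 11.3, 8.81, 7.8 and 4.84 TPM in 1 mg mice, against 0, 0, 0, 0 and 0 TPM in syngeneic mAb mice. All 11 Scl-cGVHD mice had transcript and all 8 syngeneic mice are listed at 0, so no fold is given. Oas1a passed the filter on low levels only through Scl-cGVHD mice. It therefore had to differ, and no p-value is given for it between the models. The highest level was that of ID_1537, in which most other members were low. Outside the 39 genes, 2 other interferon-induced genes were listed at 0 in every syngeneic mouse as well. They were Oas1g, whose open reading frame is 96.7% identical to that of Oas1a, with 1.04 to 4.80 TPM in Scl-cGVHD mice, and Gvin1, a very large interferon-induced GTPase, with 1.52 to 6.77 TPM. B10.D2 cells are present only in Scl-cGVHD mice, so that induction and an allele of the donor strain cannot be told apart for these 3 genes.

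None of the Ifit and Mx genes was called in the IgG groups in the main fit. The larger counts of the type I type given above for median-ratio factors, for quantile normalization and without ID_1537 include Ifit or Mx genes. Ifit1 (chr19:34640871-34650009), which binds viral RNA with an unmodified cap, was at 36.5, 10.2 and 37.6 TPM in Scl-cGVHD IgG mice, against 7.86, 15.9 and 5.97 TPM in syngeneic IgG mice. With mAb, Ifit1 was at 18.3, 6.81 and 29.4 TPM in 0.5 mg mice and 77, 31.2, 27.3, 32.7 and 21.3 TPM in 1 mg mice, against 8.41, 10.3, 7.08, 5.95 and 11.3 TPM in syngeneic mAb mice. It was called for the mAb (log2 fold change 1.90, SE 0.42, adjusted p = 0.00288) and not for IgG (log2 fold change 1.32, SE 0.54, adjusted p = 0.0823). Ifit2 (chr19:34550694-34576419), of the same family, was at 5.58, 5.82 and 8.54 TPM in Scl-cGVHD IgG mice, against 6.99, 15.1 and 6.32 TPM in syngeneic IgG mice. With mAb, Ifit2 was at 4.12, 9.09 and 7.95 TPM in 0.5 mg mice and 19.7, 16.8, 8.25, 9.17 and 3.37 TPM in 1 mg mice, against 11.5, 10.4, 8.91, 7.0 and 6.66 TPM in syngeneic mAb mice. Its groups overlapped in both comparisons. Ifit3 (chr19:34583531-34588731), whose human counterpart binds IFIT1 and stabilises it, was at 24.5, 14.5 and 29.9 TPM in Scl-cGVHD IgG mice, against 24.6, 55.7 and 24.5 TPM in syngeneic IgG mice. With mAb, Ifit3 was at 13.3, 18.3 and 51 TPM in 0.5 mg mice and 64.3, 46, 24, 26.9 and 14.8 TPM in 1 mg mice, against 33.7, 27.5, 30.8, 15.1 and 33.3 TPM in syngeneic mAb mice. The groups of Ifit3 overlapped too. The 95% intervals of the log2 fold change were -1.35 to 0.59 for Ifit2 and -1.63 to 0.57 for Ifit3 with IgG, and -0.59 to 0.91 and -0.66 to 1.05 with the mAb, and Ifit3 shares 99.1% of its open reading frame with Ifit3b. Mx1 (chr16:97447035-97462907), a dynamin-like GTPase that blocks influenza virus in the mouse, was at 8.44, 1.94 and 12.2 TPM in Scl-cGVHD IgG mice, against 2.81, 5.76 and 1.9 TPM in syngeneic IgG mice. With mAb, Mx1 was at 4.07, 3.99 and 11.4 TPM in 0.5 mg mice and 40.8, 12.3, 10.9, 15.6 and 6.72 TPM in 1 mg mice, against 3.86, 3.18, 2.0, 2.3 and 4.21 TPM in syngeneic mAb mice. The IgG groups overlapped through ID_1537, and only the mAb groups passed (log2 fold change 1.93, SE 0.45, adjusted p = 0.00379). Mx2 (chr16:97535308-97560900), the other Mx GTPase and annotated as a polymorphic pseudogene, was at 19, 5.97 and 18.5 TPM in Scl-cGVHD IgG mice, against 2.86, 8.84 and 4.43 TPM in syngeneic IgG mice. With mAb, Mx2 was at 6.68, 5.34 and 17.7 TPM in 0.5 mg mice and 22.8, 14.7, 13.8, 20.6 and 27.5 TPM in 1 mg mice, against 5.07, 5.69, 4.68, 2.35 and 7.73 TPM in syngeneic mAb mice. The same pattern held, with 1.24 (SE 0.48, adjusted p = 0.0649) for IgG and 1.79 (SE 0.37, adjusted p = 0.00183) for the mAb.

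Among the other 10 genes the transcription factors differed. Irf1 (chr11:53770014-53778374), a first-wave target of IFN-gamma with the GAS-like letters shown above, was at 86.1, 192 and 128 TPM in Scl-cGVHD IgG mice, against 22.1, 29.3 and 27.4 TPM in syngeneic IgG mice. With mAb, Irf1 was at 85.1, 33.3 and 148 TPM in 0.5 mg mice and 209.8, 94.6, 126, 98.4 and 66 TPM in 1 mg mice, against 21.6, 38.3, 32.8, 15.3 and 22.5 TPM in syngeneic mAb mice. The log2 fold changes were 2.26 (SE 0.48, adjusted p = 0.0043) and 2.11 (SE 0.37, adjusted p = 0.000678), and ID_1537 was the highest of the IgG mice. Irf7, which drives transcription of IFN-alpha genes, was at 95.8, 57.6 and 116 TPM in Scl-cGVHD IgG mice, against 35, 85.7 and 53.6 TPM in syngeneic IgG mice. With mAb, Irf7 was at 41.8, 28.6 and 106 TPM in 0.5 mg mice and 170.3, 106, 87.6, 92.3 and 67.5 TPM in 1 mg mice, against 36.8, 51.4, 47.5, 49 and 82.3 TPM in syngeneic mAb mice. The groups overlapped in both comparisons, and its call for the mAb (log2 fold change 0.94, SE 0.34, adjusted p = 0.0407) was lost without the filter on low levels or without any one of 8 mice (all of both groups but ID_1546 and ID_1534). Irf9 was at 56.4, 27.2 and 35 TPM in Scl-cGVHD IgG mice, against 21.6, 31.6 and 29.2 TPM in syngeneic IgG mice. With mAb, Irf9 was at 34.7, 38.1 and 59.3 TPM in 0.5 mg mice and 70.3, 60.2, 51.6, 53 and 34.4 TPM in 1 mg mice, against 25.4, 33.2, 28.4, 20.4 and 29.6 TPM in syngeneic mAb mice. ID_1537 lay within the range of syngeneic IgG mice, while no 1 mg mouse lay within that of syngeneic mAb mice. Stat2, its partner in the complex that reads ISRE elements, was at 42.2, 15.1 and 32.5 TPM in Scl-cGVHD IgG mice, against 14.8, 21.7 and 15.5 TPM in syngeneic IgG mice. With mAb, Stat2 was at 18.5, 27.8 and 60.9 TPM in 0.5 mg mice and 67, 52.1, 33.2, 34 and 24.3 TPM in 1 mg mice, against 18.2, 24.7, 19.2, 11.9 and 17.2 TPM in syngeneic mAb mice. Both were called for the mAb alone, with log2 fold changes of 0.93 and 1.11 against 0.46 and 0.66 for IgG.

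Zbp1 (chr2:173206612-173218923), a sensor of Z-form nucleic acid that can start necroptosis, was at 148, 114 and 178 TPM in Scl-cGVHD IgG mice, against 25.7, 39 and 30.0 TPM in syngeneic IgG mice. With mAb, Zbp1 was at 132, 30.6 and 213 TPM in 0.5 mg mice and 241, 130.0, 132, 143 and 131 TPM in 1 mg mice, against 26.7, 30.6, 30.8, 14.7 and 37.6 TPM in syngeneic mAb mice. Only ID_1540 reached the syngeneic range, and the log2 fold changes were 2.18 (SE 0.50, adjusted p = 0.00667) and 2.45 (SE 0.38, adjusted p = 0.000322). Ido1 (chr8:24584136-24597009), the enzyme that breaks down tryptophan and restrains T cells, was at 2.57, 3.49 and 5.26 TPM in Scl-cGVHD IgG mice, against 0.09, 0.12 and 0.13 TPM in syngeneic IgG mice. With mAb, Ido1 was at 2.16, 0.36 and 4.2 TPM in 0.5 mg mice and 6.62, 1.28, 4.3, 1.61 and 2.37 TPM in 1 mg mice, against 0.13, 0, 0.23, 0.04 and 0 TPM in syngeneic mAb mice. Levels were low, and no Scl-cGVHD mouse lay in the syngeneic range (log2 fold changes 2.06, SE 0.43 for IgG and 1.83, SE 0.34 for the mAb). Ido1 passed the filter on low levels only through Scl-cGVHD mice. It therefore had to differ, and no p-value is given for it between the models. Xaf1, known from human cells to bind the apoptosis inhibitor XIAP, was at 111, 38.4 and 107 TPM in Scl-cGVHD IgG mice, against 26, 39.3 and 34.5 TPM in syngeneic IgG mice. With mAb, Xaf1 was at 87.2, 32.4 and 154 TPM in 0.5 mg mice and 154, 105, 80.4, 104 and 97.3 TPM in 1 mg mice, against 33.9, 31.7, 32.3, 17.2 and 37.1 TPM in syngeneic mAb mice. ID_1537 and ID_1540 lay within the syngeneic range. Ifi44, a cytosolic protein raised by type I interferon, was at 29.3, 9.74 and 44.6 TPM in Scl-cGVHD IgG mice, against 6.58, 17.7 and 5.33 TPM in syngeneic IgG mice. With mAb, Ifi44 was at 17.3, 6.05 and 28.9 TPM in 0.5 mg mice and 76.7, 28.7, 23.7, 32.9 and 24.2 TPM in 1 mg mice, against 9.86, 11.5, 7.43, 7.11 and 11.6 TPM in syngeneic mAb mice. For IgG the groups overlapped through ID_1537, and for the mAb they did not overlap. Rsad2, the antiviral enzyme viperin, was at 8.64, 4.82 and 13.3 TPM in Scl-cGVHD IgG mice, against 2.51, 9.04 and 1.74 TPM in syngeneic IgG mice. With mAb, Rsad2 was at 3.11, 1.62 and 8.77 TPM in 0.5 mg mice and 24.1, 6.77, 6.21, 8.18 and 7.65 TPM in 1 mg mice, against 2.54, 3.19, 2.38, 2.65 and 4.49 TPM in syngeneic mAb mice. Xaf1, Ifi44 and Rsad2 were called for the mAb alone, and Rsad2 lost its call without ID_1542 (adjusted p = 0.0501). Usp18, which removes Isg15 from proteins and dampens the type I receptor, was at 39.7, 12.8 and 37.9 TPM in Scl-cGVHD IgG mice, against 14, 21 and 13.7 TPM in syngeneic IgG mice. With mAb, Usp18 was at 14, 9.11 and 32 TPM in 0.5 mg mice and 43.3, 22.4, 23.5, 25 and 19.1 TPM in 1 mg mice, against 13.5, 21.1, 14.3, 9.29 and 16.9 TPM in syngeneic mAb mice. It passed in neither comparison, with 95% intervals of -0.20 to 1.65 and 0.06 to 1.49.

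The classes were also set against each other within each mouse, as the mean log2(TPM + 1) over the 18 genes of the IFN-gamma type minus that over the 11 of the type I type. This difference was 1.16 ± 0.22 (SD, n = 3) in Scl-cGVHD IgG mice, 1.35 ± 0.28 (SD, n = 3) at 0.5 mg, 1.04 ± 0.35 (SD, n = 5) at 1 mg, 0.015 ± 0.24 (SD, n = 5) in syngeneic mAb mice and 0.20 ± 0.24 (SD, n = 3) in syngeneic IgG mice. The 11 Scl-cGVHD mice lay between 0.59 and 1.67 and the 8 syngeneic mice between -0.28 and 0.38, with no overlap. No test is given, since the classes were chosen with results known. Each class alone had a mean of 5.60 ± 0.60 and 4.43 ± 0.53 in Scl-cGVHD IgG mice (SD, n = 3), against 3.31 ± 0.24 and 3.12 ± 0.47 in syngeneic IgG mice (SD, n = 3), IFN-gamma type before type I type. In 15 of the 18 genes of the IFN-gamma type, all 11 Scl-cGVHD mice lay above all 8 syngeneic mice, whereas of the type I type only Oas1a did so, or 3 of 11 when ID_1540 was left out. Oas1a passed the filter on low levels only through Scl-cGVHD mice and had to differ. No share over all genes is given for these counts or for those of single mice that follow, so they are descriptive only. ID_1540 was above every syngeneic mouse in 18 of 18 genes of the IFN-gamma type and in 1 of 11 of the type I type. ID_1537 showed the same split, with 16 of 18 and 5 of 11. The other 9 Scl-cGVHD mice were above all syngeneic mice in 15 to 18 of 18 and, for the type I type, in 9 to 11 of 11 except for ID_1539 with 5.

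**Figure D3:**
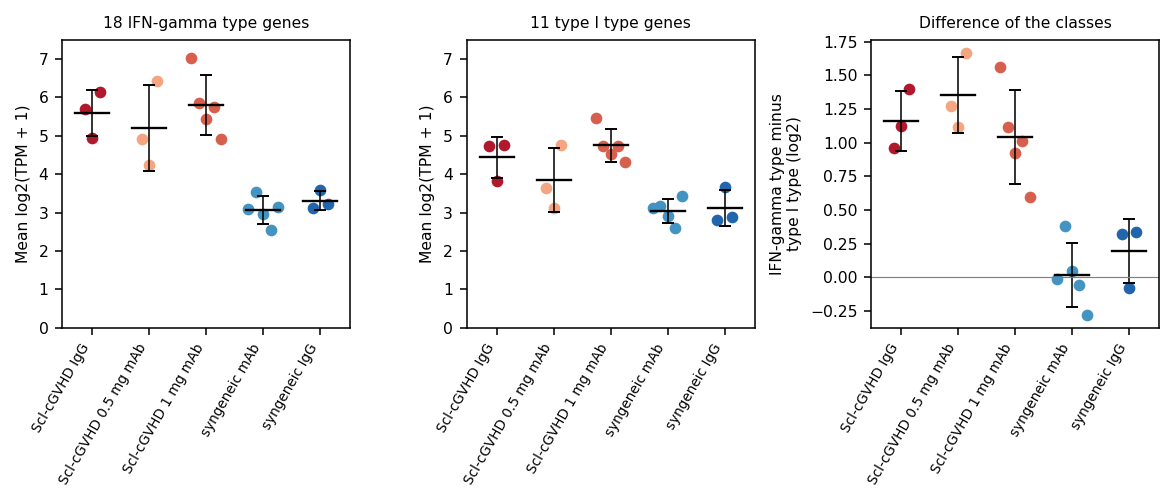
Mean log2(TPM + 1) over the 18 genes of the IFN-gamma type (left) and the 11 of the type I type (middle), and their difference (right), with a point for each mouse and the mean ± SD of each group in black. The difference lies between 0.59 and 1.67 in the 11 Scl-cGVHD mice and between -0.28 and 0.38 in the 8 syngeneic mice.

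Of the 20 interferon genes listed, only Ifng passed the filter on low levels. It was at 6.02, 3.05 and 3.46 TPM in Scl-cGVHD IgG mice, against 0.13, 0.17 and 0.23 TPM in syngeneic IgG mice. With mAb, Ifng was at 3.9, 1.33 and 4.05 TPM in 0.5 mg mice and 9.76, 2.43, 6.88, 4.48 and 1.7 TPM in 1 mg mice, against 0.34, 0, 0.1, 0.06 and 0.08 TPM in syngeneic mAb mice. No Scl-cGVHD mouse overlapped a syngeneic mouse, and the highest level was again that of ID_1542. Ifng was under 1 TPM in every syngeneic mouse and passed the filter only through Scl-cGVHD mice, so that it had to differ, and no test is given. Of 17 genes for type I interferons, 14 are listed at 0 in every mouse and the highest value of any was 0.34 TPM. That value was of Ifnb1 in ID_1544, and the only other mouse with Ifnb1 above 0 was syngeneic ID_1531 with 0.10 TPM. The type III genes Ifnl2 and Ifnl3 reached at most 0.68 TPM. Levels this low do not show that the proteins were absent.

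None of the 6 receptor genes was called higher in Scl-cGVHD skin, and Ifnlr1, the specific chain of the type III receptor, was lower in Scl-cGVHD IgG mice (1.92, 1.06 and 1.42 TPM in Scl-cGVHD IgG mice, against 4.33, 4.36 and 3.63 TPM in syngeneic IgG mice). Its log2 fold change was -1.06 (SE 0.38, adjusted p = 0.0492), and -0.58 (SE 0.29, adjusted p = 0.124) for the mAb, and the call for IgG was lost with median-ratio factors (-0.78, adjusted p = 0.0593) and with quantile normalization (-0.67, adjusted p = 0.0722). Ifngr1 and Ifngr2, the chains of the IFN-gamma receptor, had log2 fold changes of 0.37 (SE 0.38, adjusted p = 0.477) and -0.01 (SE 0.18, adjusted p = 0.985) for IgG. Those of Ifnar1 and Ifnar2, the chains of the type I receptor, were -0.08 (SE 0.32, adjusted p = 0.872) and 0.39 (SE 0.26, adjusted p = 0.263), and that of Il10rb, the shared chain of the type III receptor, was 0.54 (SE 0.21, adjusted p = 0.0724). In the mAb groups these 5 lay between -0.35 and 0.57, and none was called. Over all genes tested, 6.84% were called higher for IgG and 7.99% for the mAb. Of 11 signalling genes 3 were called higher for IgG (the inhibitors Socs1 and Socs3, and Irf8 of myeloid cells) and none lower. For the mAb these 3 and Irf5 were higher, and the kinase Tyk2 (log2 fold change -0.80, SE 0.28, adjusted p = 0.0351) and Irf3 (log2 fold change -0.87, SE 0.17, adjusted p = 0.00136) lower. With median-ratio factors neither of these lower calls remained (adjusted p = 0.0834 and 0.0905).

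**Figure D4:**
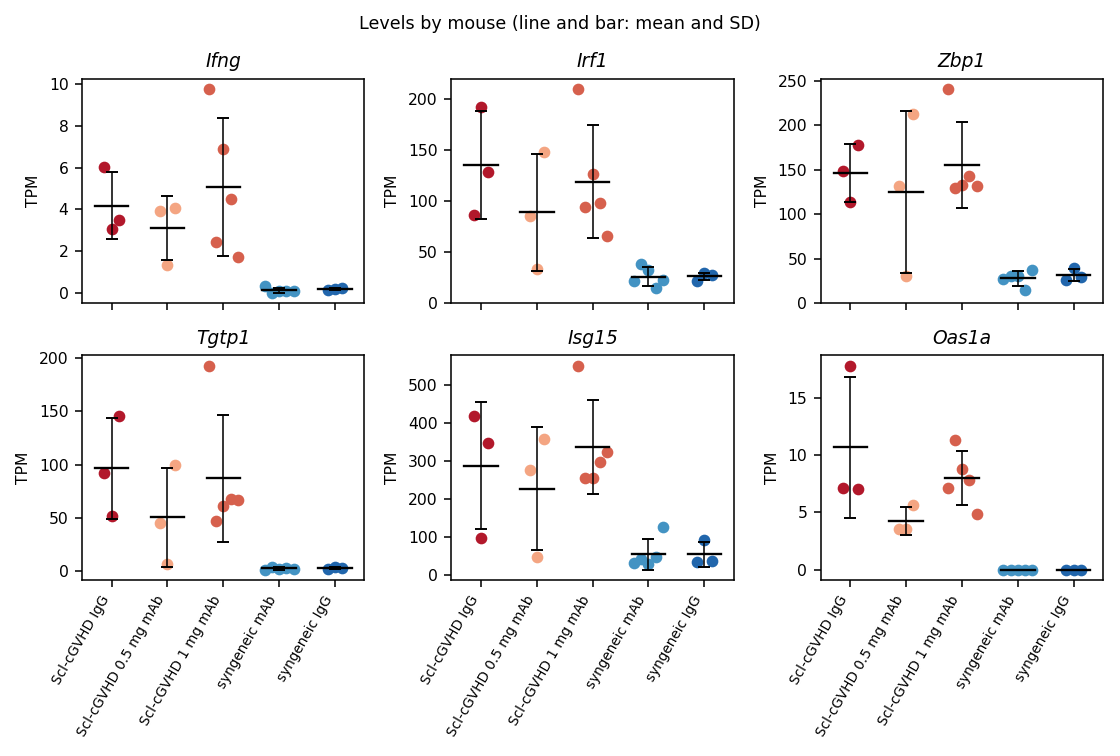
TPM of Ifng, Irf1, Zbp1, Tgtp1, Isg15 and Oas1a in each mouse (points), with the mean ± SD of each group in black. All 11 Scl-cGVHD mice lie above all 8 syngeneic mice for Ifng, Tgtp1 and Oas1a, while for Irf1, Zbp1 and Isg15 ID_1540 falls in the syngeneic range, as does ID_1537 for Isg15.

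A wider list of 62 other interferon-induced genes, 61 of them tested, moved less uniformly. Over all genes tested, 6.84% were called higher for IgG and 7.99% for the mAb. Of the 61, 25 were called higher and 1 lower for IgG, and 35 higher and 1 lower for the mAb, with median log2 fold changes of 0.85 and 0.99. The 4 with the smallest p for IgG were Gvin1, which like Oas1g passed the filter only through Scl-cGVHD mice and so had to differ, the chemokine Cxcl9, which is known as a target of IFN-gamma and attracts T cells (log2 fold changes 4.82, SE 0.59, adjusted p = 0.000165 for IgG and 5.13, SE 0.46, adjusted p = 3.37e-06 for the mAb), Samhd1, which breaks down nucleotides needed by viruses (log2 fold changes 2.54, SE 0.38, adjusted p = 0.000605 for IgG and 2.89, SE 0.29, adjusted p = 8.16e-06 for the mAb), and Slfn2, which acts in T cell quiescence (log2 fold changes 2.64, SE 0.40, adjusted p = 0.000631 for IgG and 2.44, SE 0.31, adjusted p = 5.99e-05 for the mAb). The gene called lower was Ifi27 in both comparisons (log2 fold changes -0.62, SE 0.17, adjusted p = 0.017 for IgG and -0.40, SE 0.13, adjusted p = 0.0295 for the mAb), which was named here after its values were seen, and neither call remained with median-ratio factors (-0.24 and -0.008).

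Markers of several cell types also differed between Scl-cGVHD and syngeneic skin, some higher and some lower. They did not follow the 39 genes in every mouse. ID_1537 had the highest macrophage and neutrophil sums of its group, and the lowest level of it in 33 of the 39 genes. Of 6 endothelial markers 0 were called for IgG and 1 was called lower for the mAb. Of 5 B cell markers 2 were tested, and 0 were called in either comparison. Summed over 7 genes, T cell markers lay at 28.5 to 110.3 TPM in Scl-cGVHD IgG mice against 18.3 to 20.5 TPM in syngeneic IgG mice, and at 28.2 to 78.7 TPM in 1 mg mice against 11.9 to 29.3 TPM in syngeneic mAb mice. Of the 7, 4 were called higher for IgG and 5 for the mAb, and Cd8a and Cd8b1 stayed under 1 TPM in every syngeneic mouse. Cd8a and Cd8b1 thus passed the filter on low levels only through Scl-cGVHD mice and had to differ. Macrophage markers (6 genes) lay at 2633 to 6299 TPM in Scl-cGVHD IgG mice against 877 to 1047 TPM in syngeneic IgG mice, and at 1131 to 2498 TPM in 1 mg mice against 688 to 1055 TPM in syngeneic mAb mice, with 3 called in each. Neutrophil markers (6 genes) lay at 23.6 to 3114 TPM in Scl-cGVHD IgG mice against 12.5 to 16.0 TPM in syngeneic IgG mice, with 3 called, and at 19.5 to 257.5 TPM in 1 mg mice against 9.13 to 20.3 TPM in syngeneic mAb mice, with 1 called. Of these markers, Ly6g, Cxcr2 and Mmp8 were under 1 TPM in every syngeneic mouse and passed the filter only through Scl-cGVHD mice. Fibroblast markers (7 genes) lay at 271 to 2522 TPM in Scl-cGVHD IgG mice against 6738 to 10730 TPM in syngeneic IgG mice, and at 224 to 1075 TPM in 1 mg mice against 3924 to 11880 TPM in syngeneic mAb mice, with 6 called lower in each. Over all 16350 genes tested, 1118 were called higher and 2925 lower for IgG, and 1307 higher and 4635 lower for the mAb. With median-ratio factors 1814 were called higher and 1692 lower for IgG, and 2434 higher and 2316 lower for the mAb. Keratinocyte markers (8 genes) lay at 8177 to 32210 TPM in Scl-cGVHD IgG mice against 10430 to 11640 TPM in syngeneic IgG mice, with 2 called higher and 1 lower, and at 23340 to 31840 TPM in 1 mg mice against 6057 to 11780 TPM in syngeneic mAb mice, with 5 called higher. Skeletal muscle markers (7 genes) lay at 4342 to 8966 TPM in Scl-cGVHD IgG mice against 15060 to 24460 TPM in syngeneic IgG mice, with 3 called lower, and at 5434 to 15280 TPM in 1 mg mice against 5265 to 23140 TPM in syngeneic mAb mice, with none called. The 5 NK cell markers summed to at most 3.76 TPM in any mouse, and Ncr1, their defining receptor, was at 0 to 0.45 TPM in Scl-cGVHD mice and at 0.37 to 1.61 TPM in syngeneic mice. Of the 5, 2 were tested, and Klre1 was called higher in both comparisons, at 0.16 to 1.84 TPM in Scl-cGVHD mice and 0 to 0.21 TPM in syngeneic mice, having passed the filter only through Scl-cGVHD mice. Of 5 markers of plasmacytoid dendritic cells, the main source of IFN-alpha, Siglech was at 0 to 0.37 TPM in Scl-cGVHD mice and at 0.50 to 2.59 TPM in syngeneic mice. Siglech was called lower in both comparisons, but it passed the filter on low levels only through syngeneic mice. Ccr9 of the same list was called higher for the mAb, at 0.50 to 1.66 TPM in 1 mg mice and 0.14 to 0.87 TPM in syngeneic mAb mice. It passed the filter only through Scl-cGVHD mice. Neither call is therefore a test of a difference. The other tested members were not called. The part of these cells in the levels of the 39 genes was not tested.

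The mAb was then compared with IgG, which addresses whether blocking CX3CL1 moved these genes. At 1 mg, 0 of the 39 genes were called against Scl-cGVHD IgG mice, as were 0% of all genes, and 1 had an unadjusted p under 0.05, against 10.2% of all genes. The 3 smallest p were those of Mx1 (log2 fold change 1.10, SE 0.52, adjusted p = 0.48), Irf9 (log2 fold change 0.46, SE 0.26, adjusted p = 0.567) and Gbp10 (log2 fold change 1.31, SE 0.84, adjusted p = 0.656), all toward higher levels at 1 mg, with overlapping groups. The median log2 fold change was 0.21 over the 39 genes (0.18 for the IFN-gamma type and 0.41 for the type I type). The count of 1 was 0 in a fit of the compared groups alone, without the filter, or without any one of ID_1537, ID_1542, ID_1543 and ID_1545, 2 without ID_1535 and 4 without ID_1546. The median was -0.11 without ID_1537 and -0.07 without ID_1542, so its sign depends on either of these mice. The 95% intervals leave room for changes in both directions, such as -0.88 to 1.33 for Igtp, -1.01 to 0.78 for Gbp2 and -0.93 to 1.75 for Isg15.

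At 0.5 mg, 0 of the 39 genes were called against Scl-cGVHD IgG mice, where 0.055% of all genes were, and 4 had an unadjusted p under 0.05, all with negative log2 fold changes, against 14.5% of all genes in either direction. The 3 smallest p were those of Oas1a (log2 fold change -1.05, SE 0.30, adjusted p = 0.138), Oasl2 (log2 fold change -1.24, SE 0.52, adjusted p = 0.271) and Oasl1 (log2 fold change -0.81, SE 0.34, adjusted p = 0.28), all of the Oas family. In Oas1a each 0.5 mg mouse lay below each IgG mouse, and it passed without ID_1535 (log2 fold change -1.25, adjusted p = 0.0366). The median over the 39 genes was -0.59, and it was -0.06 without ID_1540 and -1.11 without ID_1541. The count of 4 was 1 in a fit of the compared groups alone, 1 without ID_1538 or ID_1540, 2 without ID_1535 or ID_1539, 11 without ID_1537 and 21 without ID_1541. ID_1540 had the lowest level of all 11 Scl-cGVHD mice in 29 of the 39 genes.

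Between the doses, 0 of the 39 genes were called, as were 0% of all genes, and 11 had an unadjusted p under 0.05, all with positive log2 fold changes, against 5.29% of all genes in either direction. Of the 11, 8 were of the type I type. The count of 11 was 6 in a fit of the compared groups alone (5 of the type I type), 2 without ID_1539, 1 without ID_1540, 32 without ID_1541, 5 without ID_1542 and 7 without ID_1545. Over the 39 genes the median was 0.66 with all mice. Leaving out ID_1540 gave 0.21, ID_1541 gave 1.30 and ID_1542 gave 0.38. The 3 smallest p were those of Oasl1 (log2 fold change 0.88, SE 0.31, adjusted p = 0.925), Oas1a (log2 fold change 0.76, SE 0.27, adjusted p = 0.925) and Oas3 (log2 fold change 1.19, SE 0.43, adjusted p = 0.925). In syngeneic mice the mAb left all 39 genes uncalled (0% of all genes), with 0 at an unadjusted p under 0.05, against 0.703% of all genes. The 3 smallest p there were those of Gbp5 (log2 fold change -0.41, SE 0.47, adjusted p = 1), Ifi47 (log2 fold change -0.34, SE 0.42, adjusted p = 1) and Gbp2b (log2 fold change -0.45, SE 0.56, adjusted p = 1). For the difference between the responses in Scl-cGVHD and syngeneic mice, the 3 smallest p were those of Mx1 (log2 fold change 1.17, SE 0.73, adjusted p = 1), Gbp10 (log2 fold change 1.54, SE 1.18, adjusted p = 1) and Irf9 (log2 fold change 0.47, SE 0.36, adjusted p = 1). The comparisons of each dose with IgG share the Scl-cGVHD IgG mice and those of 1 mg share the 1 mg mice, so their values are not independent of each other.

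**Figure D5:**
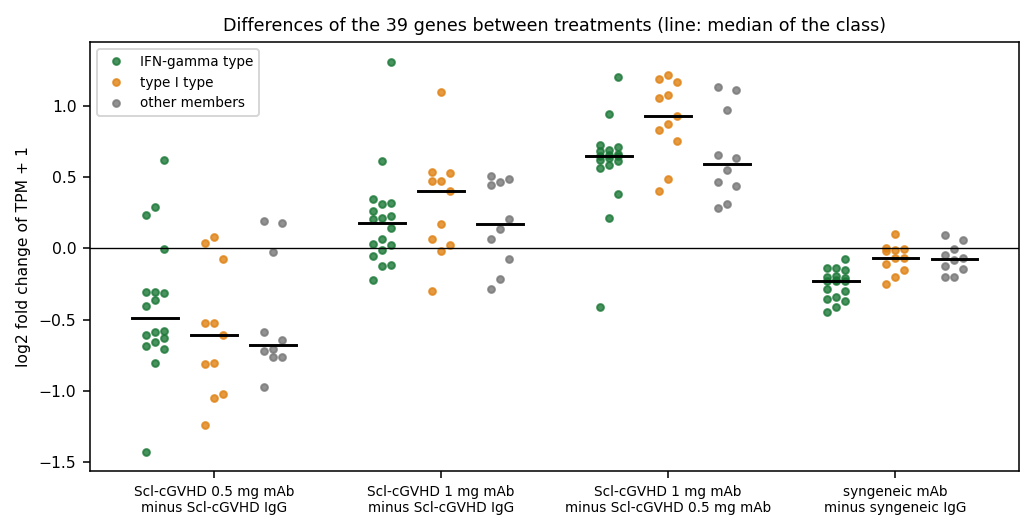
Log2 fold changes of the 39 genes (points, by class) in 4 comparisons between treatments, with the median of each class as a black line. None of these genes was called in any of the 4, the points at 0.5 mg lie mostly below 0, and those of 1 mg minus 0.5 mg mostly above 0.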

How the data were processed

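RNA was extracted from skin of 19 mice and sequenced, per the labels. For trimming and quality control the authors used Trimmomatic and FastQC, for alignment to GRCm38 STAR 2.5.2b and for quantification RSEM 1.2.31, and the deposited values used here are TPM for each gene and mouse. TPM holds no read counts, so the depth of a value is not known from the table. A deposited summary gave 22699740 to 38841010 read pairs (median 29298146) and 20325491 to 35005382 uniquely mapped pairs per library, without a tie to single mice.

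Groups were taken from the labels. Genes reaching 1 TPM in 3 or more mice were kept, 16350 of 50686. Values were transformed as log2(TPM + 1), and all 5 groups entered one linear model (limma 3.58.1, R 4.3.3), from which the comparisons and the difference between responses were drawn, with Benjamini-Hochberg adjustment over all genes tested and a threshold of 0.05. The code was tested on simulated data. Replicates are separate mice.

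The 39 members, their classes and the other gene lists were chosen with earlier results of these data known. Values in every mouse were given for members called in either comparison of the models, for the 3 members with the smallest p in each other comparison, and for members singled out. Genes of the wider interferon list were named by the 4 smallest p. One item of the signalling list is not reported here.

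The alternatives tried were median-ratio factors, quantile normalization, another pseudocount (0.1), another minimum level (5 TPM) or none, a fit of the compared groups alone, and the omission of each mouse in turn. Promoter windows came from RefSeq, and identity between copies from the longest open reading frame of annotated transcripts.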

Additional observations from a re-analysis of the deposited data

Results flagged for a closer look

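Levels within groups of 5 mice were searched for a mouse far from the others by Dixon's criterion at the 95% level, which chance meets in about 1 of 20 groups. Of 78 combinations of gene and group 19 met it, and 17 of these were the highest value of ID_1542 among the 1 mg mice. The genes were measured in the same mice, so the 17 are not separate instances. The search used TPM without a log transform, and the count of 19 cannot be set against the chance of 1 in 20. The GBP genes concerned were Gbp2 (373 TPM in ID_1542, next highest 148 TPM), Gbp2b (488 and 183 TPM), Gbp3 (151 and 69.9 TPM), Gbp4 (201 and 72.5 TPM) and Gbp5 (57.5 and 23.3 TPM). The IRG genes were Irgm1 (337 and 172 TPM), Igtp (521 and 239 TPM), Ifi47 (244 and 126 TPM), Tgtp1 (193 and 67.2 TPM) and Tgtp2 (149 and 63.8 TPM). Of the type I type they were Ifit1 (77.0 and 32.7 TPM), Isg15 (550.2 and 323 TPM) and Mx1 (40.8 and 15.6 TPM), and of the other genes Ifi44 (76.7 and 32.9 TPM), Rsad2 (24.1 and 8.18 TPM), Usp18 (43.3 and 25.0 TPM) and Zbp1 (241 and 143 TPM). The same mouse had the highest Ifng of all 19, at 9.76 TPM. In syngeneic mAb mice Isg15 was highest in ID_1534 at 127 TPM (next 48.3 TPM) and Xaf1 lowest in ID_1533 at 17.2 TPM (next 31.7 TPM).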

How the results depend on the processing

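In Scl-cGVHD IgG against syngeneic IgG mice, the count of the type I type called higher was 5, and it was 8 with median-ratio factors and 8 with quantile normalization, while the count of the other 10 genes was 3, and 6 with median-ratio factors. Leaving out single mice gave 20 to 27 of 39 genes, 14 to 15 of the IFN-gamma type, 3 to 7 of the type I type (3 without ID_1535, ID_1538, ID_1527 or ID_1529) and 3 to 5 of the others (5 without ID_1537). In 1 mg against syngeneic mAb mice it gave 32 to 35, 16 to 17, 9 to 9 and 7 to 9. At 0.5 mg against IgG it gave 0 to 1, the call being Oas1a without ID_1535. In the other comparisons it gave 0 to 0. The causes were not tested. No direction was reversed for any of these counts. Of 138 values of called genes without single mice in the IgG groups 129 kept their call and 9 lost it, and of 350 in the mAb groups 336 kept it and 14 lost it. Under the other alternatives 136 of 137 and 206 of 209 kept it. No paired analysis was possible because the groups share no mouse numbers. Groups of 3 to 5 mice and values without read counts limit what can be resolved, most of all for Oas1a, Ido1 and other genes near 1 TPM, and the spread within Scl-cGVHD groups limits the treatment comparisons.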
